A study of Mus musculus with 12 samples.

Results

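RNA held by tagged ribosomes of LepRb cells, the cells that carry the long signalling form of the leptin receptor, was compared between Stat3KO and Ctrl mice. Its 6 libraries, 3 per genotype, were chosen by their sample titles out of 12 in the series; the other 6 hold the RNA left in the supernatant of the same pull-downs. In this assay, translating ribosome affinity purification, ribosomes marked by a green fluorescent fusion of their protein L10a are caught on beads and the RNA they hold is sequenced. Both groups were adult mice homozygous for LepRb-Cre/Cre and for the ribosome tag R26-GFP:L10a/GFP:L10a, and the Stat3KO mice were in addition Stat3-flox/flox, so the controls carried Cre and the tag but no floxed Stat3. No drug or hormone treatment is named, and neither sex nor age in weeks is given. Each library pooled the hypothalami of 5 to 8 mice, taken at the midpoint of the light cycle. By design, floxed Stat3 is to be lost wherever LepRb-Cre is active, in development as well as in the adult. The pull-down takes tagged ribosomes from the whole pool of hypothalami, so each library of either genotype averages over many kinds of LepRb cell.

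As background, leptin binding to LepRb activates the kinase JAK2, which phosphorylates STAT3, and STAT3 then enters the nucleus and acts on target genes. In the arcuate nucleus leptin raises Pomc, whose melanocortin products restrain feeding, and lowers Agrp and Npy, whose products drive it. Interferons signal through related parts: type I interferon acts through IFNAR1 and IFNAR2 on a complex with STAT2 and IRF9, which binds the interferon-stimulated response element (ISRE), and type II interferon acts through IFNGR1 and IFNGR2 on factors that bind the gamma-activated site (GAS).

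The bead-bound libraries held 24536698 to 39445250 counts. Levels are counts divided by scaled library size (CPM), set over these 6 libraries, and can be compared between libraries but not between genes of different length. Replicate 1 of each genotype stood apart: the chi-square statistic per gene against its fellow replicates was 48.6 to 77.1, against 12.9 and 16.3 between replicates 2 and 3. In Stat3KO replicates 1, 2 and 3 Stat3 (chr11:100885098-100939540, GRCm38) stood at 110, 143 and 151 CPM, against 137, 168 and 170 CPM among the controls, ranges that overlap (log2 fold change -0.24, standard error (SE) 0.16). The table holds 1 value for the gene as a whole, which does not check the loss of the floxed exons. Lepr stood at 9.37 to 12.7 CPM in Stat3KO against 5.59 to 12.6 CPM in Ctrl, and the tag transcript Gfp_L10a at 78.9 to 155 and 93.4 to 158 CPM. In Ctrl the tag was 11 times and Lepr 4.72 times as high on beads as in supernatant, each fraction scaled on its own.

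Of 17354 genes that passed a filter on low counts, 73 were higher in Stat3KO (0.421% of those tested) and 5 were lower (0.0288%), by edgeR's quasi-likelihood test at a Benjamini-Hochberg adjusted p under 0.05. For each of these 78 genes the 3 Stat3KO libraries lay entirely to 1 side of the 3 Ctrl libraries. That was so of 5.16% of all tested genes in the higher and 4.24% in the lower direction. The calls were made on these same 6 libraries, so the separation adds no support to them. Most of the genes that rose, 58 of the 73, stand in 14 lists of interferon signalling, antiviral defence and antigen presentation. Those lists hold 187 of the 17354 tested genes. Their median log2 fold change was 0.76 against -0.0085 over all genes tested, and 0 of them fell. The lists include receptors and kinases, so membership is not the same as induction by interferon. Lists and members were chosen with earlier results of these data known, so these counts are no independent test. The rises were large. The log2 fold change ran from 1.08 to 7.57 with a median of 2.86, and 53 of the 73 genes rose by a log2 fold change above 2. Many started from little: 27 of the 73 had a Ctrl mean under 1 CPM. Each p-value sets the genotype difference against the spread between libraries, each made from 1 pool of mice.

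**Figure D1:**
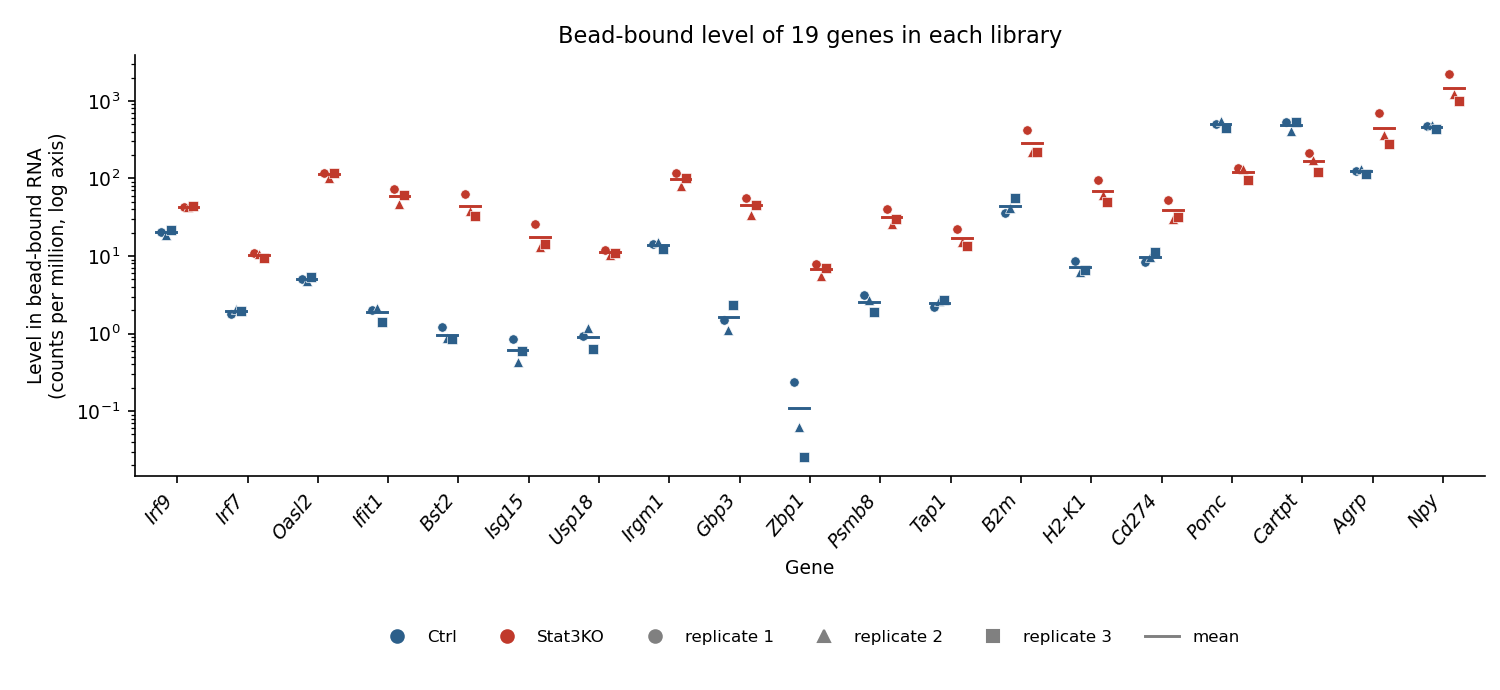
The vertical axis gives the bead-bound level in CPM on a log scale for named genes; blue is Ctrl, red is Stat3KO, marker shapes are replicates 1 to 3 and short lines are means. In every gene shown the groups do not overlap; Oasl2 sits at 103 to 118 CPM in Stat3KO against 4.75 to 5.29 CPM in Ctrl, while Pomc and Cartpt are lower in Stat3KO.

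The pathway begins with its ligands, and none was detected above the filter. Of 12 interferon genes, 11 had 0 counts in all 6 bead-bound libraries; Ifng, the type II interferon, had 2 counts in each genotype. The receptors and their kinases did not rise. Among 16 genes for interferon and gp130 receptors and their kinases, 0 passed the test, with a median log2 fold change of -0.12. At an unadjusted p under 0.05, where all tested genes gave 2.1% higher and 2.01% lower, 0 were higher and 1 was lower. That gene was Ifnar2, a type I receptor chain, at 8.11, 8.84 and 7.56 CPM in Stat3KO against 9.87, 10.3 and 12.0 CPM in Ctrl (-0.40, SE 0.17), and DESeq2 and limma-voom also called 0 of the list. Ifnar1, its partner, was at 18.5, 24.3 and 19.7 CPM against 24.5, 24.6 and 24.8 CPM. The Stat3KO libraries lay below every Ctrl library for both chains. Ifngr1 (6.10 to 8.65 against 6.63 to 9.62 CPM) and Ifngr2 (34.1 to 43.4 against 43.2 to 45.3 CPM), the chains for type II interferon, overlapped between genotypes.

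Among transcription factors downstream of the receptors, Irf7, Irf1 and Irf9 rose, and 0 of the 15 STAT and IRF genes tested fell. Irf7, an amplifier of the type I response, was at 10.8, 10.5 and 9.32 CPM in Stat3KO against 1.80, 2.07 and 1.97 CPM in Ctrl (log2 fold change 2.39, SE 0.20, adjusted p = 0.00017). Irf1, which acts downstream of type II interferon, was at 30.9, 21.5 and 25.5 CPM against 9.39, 7.77 and 10.9 CPM (1.47, SE 0.20, adjusted p = 0.0059). Irf9, the DNA-binding partner of STAT2, was nearly constant within each group, at 42.8, 42.7 and 44.5 CPM against 20.6, 18.8 and 21.3 CPM (1.10, SE 0.14, adjusted p = 0.0044). Its call was lost without Ctrl replicate 2 (adjusted p = 0.071). Stat2, of the same complex, depended on a single library: it was at 15.5 CPM in Stat3KO replicate 1, within the Ctrl range of 14.5 to 16.7 CPM, and at 28.9 and 30.2 CPM in replicates 2 and 3 (0.67, SE 0.24, adjusted p = 0.98). With Stat3KO replicate 1 left out, Stat2 passed. Irf8, at 8.89, 6.28 and 6.13 CPM against 3.20, 1.39 and 0.793 CPM, did not pass (2.02, SE 0.43, adjusted p = 0.13).

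Among 21 tested sensors of nucleic acid and their adaptors, 3 rose and 0 fell (median 0.29). Zbp1, which senses Z-form nucleic acid, was at 7.99, 5.6 and 7.02 CPM in Stat3KO against 0.24, 0.0616 and 0.0256 CPM in Ctrl (6.11, SE 0.49, adjusted p = 0.00012). It was close to absent from every control library. Eif2ak2, the double-stranded RNA kinase PKR, went from 8.95, 10.8 and 10.1 CPM to 35.8, 35.2 and 43.4 CPM (1.94, SE 0.16, adjusted p = 0.00017). Ddx58, the RNA sensor RIG-I, went from 4.44 to 5.32 CPM up to 12.5 to 15.9 CPM (1.49, SE 0.19, adjusted p = 0.0040). The related sensors Dhx58 (log2 fold change 1.67, adjusted p = 0.077) and Ifih1 (1.05, adjusted p = 0.17) did not pass here and passed in DESeq2, which called 8 members of the list.

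The effectors formed the largest group, with 16 of 51 tested IFIT, OAS and related antiviral genes higher and 0 lower (median 1.02). Oasl2, of the oligoadenylate synthetase family, gave the lowest adjusted p of the comparison, at 118, 103 and 118 CPM in Stat3KO against 5.07, 4.75 and 5.29 CPM in Ctrl (4.48, SE 0.16, adjusted p = 8.0e-07; chr5:114896936-114912234). Ifit1, which binds viral RNA, was at 72.3, 46.4 and 60.8 CPM against 2.04, 2.16 and 1.41 CPM (5.01, SE 0.25). Its neighbours Ifit2 (1.61, SE 0.17), Ifit3 (2.71, SE 0.26) and Ifit3b (1.81, SE 0.30) rose less; Ifit3 and Ifit3b are near copies whose reads may be shared, and the call on Ifit3b was lost when any of 4 single libraries was left out (adjusted p up to 0.15). Gm4951, of the interferon-inducible GTPase family, was at 12.3, 8.61 and 10.5 CPM against 0.0400, 0.0308 and 0.0767 CPM, which made it the largest fitted change (7.57, SE 0.37). Bst2 (tetherin), Rtp4, Samd9l, Xaf1, Ifi35, Ifi44, Oas1b, Oas1a, Zc3hav1 and F830016B08Rik rose as well. F830016B08Rik had 0 counts in all Ctrl libraries and 65 in Stat3KO, at least 18.8-fold higher when the Ctrl group is set at 3 counts in all. Oas1a, Zc3hav1 and F830016B08Rik lost their calls with single libraries left out (adjusted p up to 0.12, 0.30 and 0.13), and Xaf1 did so without Ctrl replicate 3 (0.054). Isg20 (2.5, adjusted p = 0.052), Rsad2 (2.33, adjusted p = 0.056) and Samhd1 (0.81, adjusted p = 0.057) lay just past the threshold with groups that did not overlap.

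2 families of large GTPases, which attack the vacuoles of intracellular pathogens, moved nearly as a whole. Of 9 tested immunity-related GTPases 8 rose (median 4.52), the exception being Irgq, which was level at 136 to 166 against 153 to 166 CPM. Irgm1 was at 117, 79.3 and 101 CPM against 14.1, 15.2 and 12.1 CPM (2.84, SE 0.19). Irgm2 was at 52.4, 50.2 and 66.2 CPM against 2.44, 1.82 and 3.04 CPM (4.52, SE 0.23), and Igtp at 71.3, 46.4 and 49.1 CPM against 3.84, 3.36 and 4.02 CPM (3.89, SE 0.21); the spans of these 2 overlap. Gm12250 (6.63, SE 0.36), Ifi47 (5.52, SE 0.43), Iigp1 (5.11, SE 0.40), Tgtp1 (5.04, SE 0.65) and Tgtp2 (4.40, SE 0.70) were below 2 CPM in every Ctrl library. Tgtp1 and Tgtp2 are near-identical copies and are uncertain as separate genes; the call on Tgtp2 was also lost in DESeq2 and when Stat3KO replicate 1 or 3 or Ctrl replicate 2 was left out (adjusted p up to 0.085). Of 10 tested guanylate-binding proteins 7 rose (median 2.76): Gbp3, at 55.4, 33.8 and 46.1 CPM against 1.48, 1.11 and 2.30 CPM (4.77, SE 0.30), then Gbp6, Gbp4, Gbp8, Gbp2, Gbp9 and Gbp7. The annotated spans of Gbp4, Gbp8 and Gbp9 overlap, and Gbp8, at 0.709 to 1.11 CPM in Stat3KO, lost its call in every refit without a single library (adjusted p up to 0.27). Gbp5, at 2.43 to 3.19 against 1.24 to 2.74 CPM, did not pass.

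ISG15 is a ubiquitin-like protein that is joined to other proteins during the interferon response, and 4 of 7 tested genes of its pathway rose (median 1.82). Isg15 itself was at 26.1, 13.1 and 14.2 CPM against 0.839, 0.432 and 0.588 CPM (4.86, SE 0.36). Usp18, the protease that removes ISG15 and a brake on the type I receptor, was at 12.1, 10.4 and 10.9 CPM against 0.919, 1.17 and 0.639 CPM (3.62, SE 0.26). Ube2l6, the conjugating enzyme (1.66, SE 0.26), and Herc6, the mouse ligase (2.06, SE 0.34), rose by less. The calls on both were lost when Ctrl replicate 1 or 2 was left out, which left 2 genes of the pathway called; Ube2l6 was also lost without Ctrl replicate 3 and Herc6 without Stat3KO replicate 3 (adjusted p up to 0.12 and 0.15). Uba7, the activating enzyme, was at 2.38, 6.94 and 4.94 CPM against 1.16, 1.63 and 1.23 CPM (1.82, adjusted p = 0.11). Among 9 interferon-responsive PARP genes and partners, 5 rose: Parp10 (2.86, SE 0.23), Parp14 (2.67, SE 0.35), Dtx3l (1.74, SE 0.21), Zc3hav1 (1.09, SE 0.19) and Parp12 (1.08, SE 0.16). Parp12 was at 12.9, 12.9 and 13.7 CPM against 6.03, 6.10 and 6.57 CPM. Its call and that on Zc3hav1 were lost without Stat3KO replicate 2 or 3 or Ctrl replicate 2 or 3, which left 3 of the 5 (adjusted p up to 0.15 for Parp12). Zc3hav1 also lost its call without Stat3KO replicate 1, without Ctrl replicate 1, and with the replicate number as a block (adjusted p up to 0.30). Of 10 TRIM genes, Trim21 rose (2.03, SE 0.19); DESeq2 called 4.

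**Figure D2:**
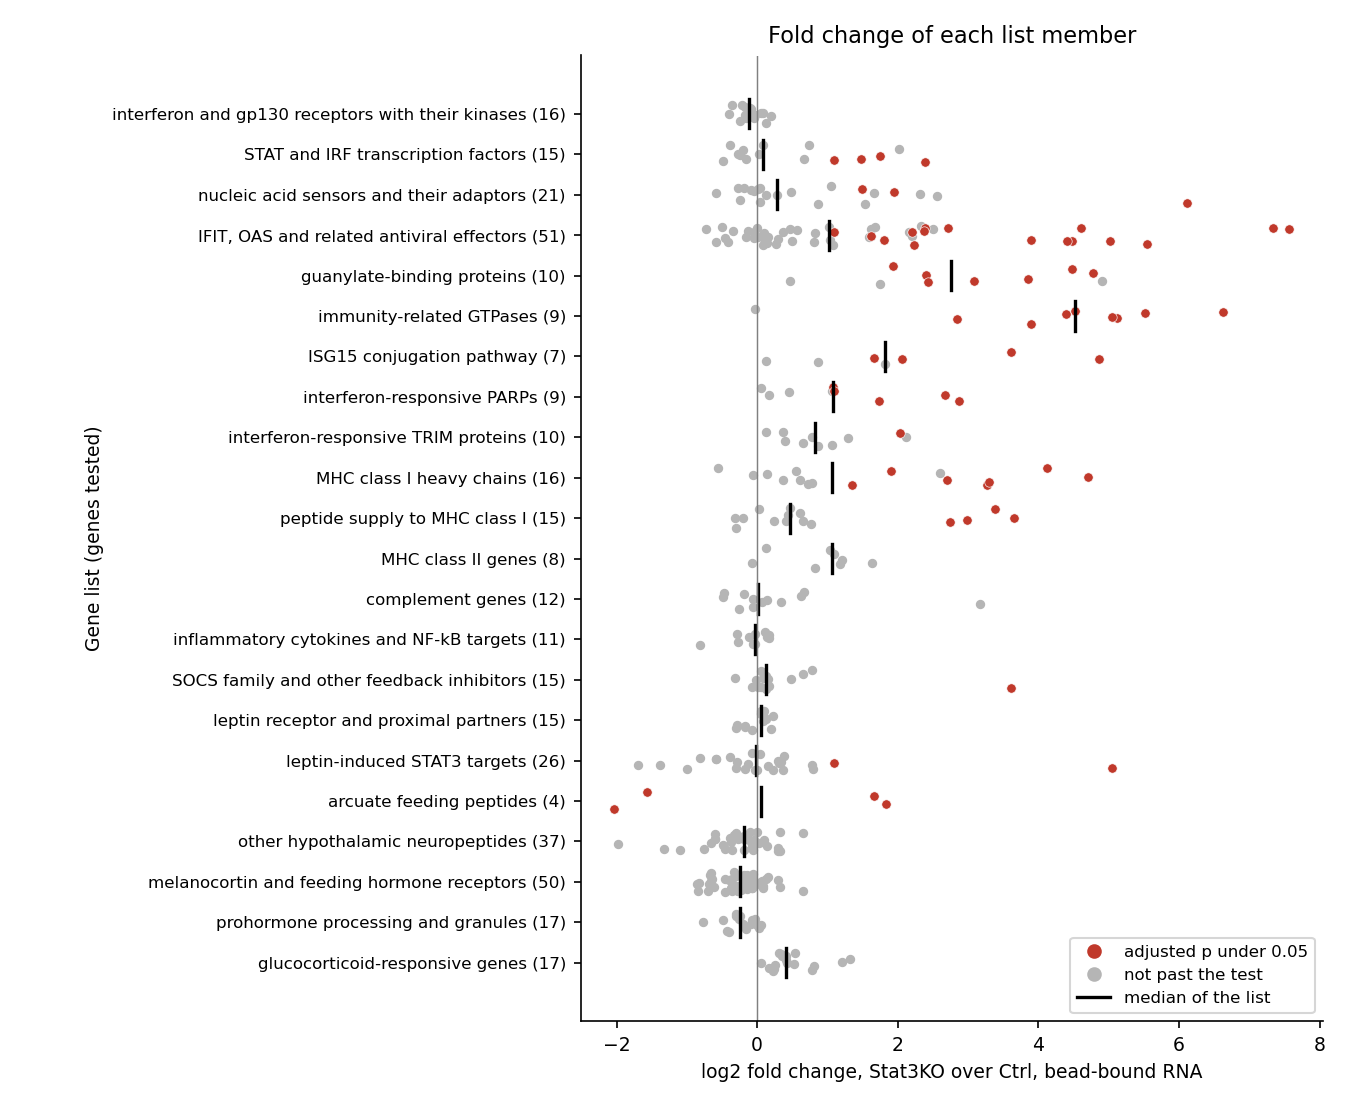
Each point is a tested gene of 1 list, placed by its log2 fold change of Stat3KO over Ctrl in bead-bound RNA; red points passed the test and black bars are list medians. Receptors and kinases lie around 0, whereas the immunity-related GTPases have a median of 4.52 and the guanylate-binding proteins one of 2.76.

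Promoter letters are shown for some genes that rose, all with a match, and for Pomc, which fell. RefSeq windows on GRCm38.p6, from 250 bases before to 50 after a start, were matched by symbol for 54 of the 73 higher genes, 4 of the 5 lower genes and 12484 tested genes. An ISRE-like match was GAAANNGAAA and a GAS-like match TTCNNNGAA, both read on either strand, and matches may overlap each other. The ISRE-like letters were in a window of 22 of the 54 higher genes (40.7%). The shares were 3.60% of tested genes with a window and 3.99% of all 27025 genes with a window. The GAS-like letters were in 15 of 54 (27.8%), against 8.24% of tested genes and 9.55% of all genes with a window. The matches are a description of letters and not of binding. The genes printed do not stand for all higher genes. Oasl2, Irf7, Tap1 and Npy rose with no match of either kind in their windows. The 120 bases before the RefSeq start are given below in the direction of each gene, with matches in capitals. On GENCODE M21 coordinates the Psmb8 stretch lies inside the gene (chr17:34197721-34201454). The Ifit1 stretch runs past the annotated gene start (34640871).
Isg15 (chr4:156200819-156200938, minus strand, 3 overlapping ISRE-like matches): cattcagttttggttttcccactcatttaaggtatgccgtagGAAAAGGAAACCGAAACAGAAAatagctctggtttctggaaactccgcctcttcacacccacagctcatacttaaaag
Ifit1 (chr19:34640769-34640888, plus strand, 2 ISRE-like matches on the opposite strand): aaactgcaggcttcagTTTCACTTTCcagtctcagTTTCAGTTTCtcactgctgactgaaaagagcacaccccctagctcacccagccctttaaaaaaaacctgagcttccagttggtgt
Gbp2 (chr3:142620543-142620662, plus strand, 1 ISRE-like match on the opposite strand): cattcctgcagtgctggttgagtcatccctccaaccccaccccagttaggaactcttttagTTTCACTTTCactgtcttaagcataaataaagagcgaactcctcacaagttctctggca
Igtp (chr11:58199436-58199555, plus strand, 1 GAS-like then 1 ISRE-like match): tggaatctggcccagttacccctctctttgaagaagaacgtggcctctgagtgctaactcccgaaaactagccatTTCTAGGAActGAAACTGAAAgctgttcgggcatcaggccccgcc
Psmb8 (chr17:34198075-34198194, plus strand, 1 GAS-like match): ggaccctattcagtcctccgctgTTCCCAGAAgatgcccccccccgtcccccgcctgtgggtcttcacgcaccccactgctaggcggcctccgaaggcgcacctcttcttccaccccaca
Pomc, which fell (chr12:3954825-3954944, plus strand, no match in the window): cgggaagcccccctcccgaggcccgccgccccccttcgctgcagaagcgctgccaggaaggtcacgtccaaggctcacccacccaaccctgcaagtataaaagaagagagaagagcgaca

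MHC class I molecules show peptides from inside a cell to T cells, and some genes of both the chains and the peptide supply rose. Of 16 tested class I genes, B2m included, 7 rose and 0 fell (median 1.06). B2m, the light chain, was at 426, 222 and 220 CPM in Stat3KO against 36.1, 41.6 and 56.5 CPM in Ctrl (2.69, SE 0.28, adjusted p = 0.00097; chr2:122147686-122153083). H2-K1, a classical heavy chain, was at 96.1, 61.4 and 49.6 CPM against 8.67, 6.16 and 6.68 CPM (3.27, SE 0.26). H2-D1, the other classical heavy chain measured, started higher and moved less, at 114, 69.6 and 57.7 CPM against 30.4, 32.6 and 31.9 CPM (1.35, SE 0.23, adjusted p = 0.035). Its call was lost in limma-voom and without Stat3KO replicate 2 or any single Ctrl replicate (adjusted p up to 0.18). The non-classical H2-Q6 (4.70, SE 0.30), H2-Q7 (4.12, SE 0.36), H2-Q4 (3.30, SE 0.36) and H2-T23 (1.90, SE 0.23) rose too; their sequences are alike, so reads may have been split among them. For B2m, H2-K1, H2-D1, H2-Q4, H2-Q6, H2-Q7 and H2-T23 Stat3KO replicate 1 was the highest library. In peptide supply 4 of 15 rose and 11 were not called (median 0.47). Psmb8, an immunoproteasome subunit, was at 40.3, 25.9 and 29.9 CPM against 3.12, 2.74 and 1.87 CPM (3.65, SE 0.25). The second subunit Psmb9 (3.38, SE 0.35), the peptide pump Tap1 (2.74, SE 0.24) and Nlrc5, the transactivator of class I genes (2.98, SE 0.29), rose with it. Psmb9 and Tap1 overlap on opposite strands, and the strand of the reads is not stated. Psmb10, at 130, 87.9 and 91.5 CPM against 75.1, 58.7 and 49.2 CPM, did not pass (0.76, adjusted p = 0.45), nor did Tapbp (0.65, adjusted p = 0.92).

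MHC class II genes, complement genes and inflammatory genes were not called. Of 8 class II genes 0 passed, although 7 had a positive log2 fold change (median 1.06), as did 48.3% of all tested genes. At an unadjusted p under 0.05, 4 were higher, against 2.1% of all tested genes. H2-Aa was at 4.22, 1.87 and 1.4 CPM against 1.04, 0.925 and 0.486 CPM (1.63, adjusted p = 0.60). Of 12 complement genes and 11 inflammatory cytokine and NF-kB target genes 0 passed, with medians of 0.0083 and -0.03. C1ra, the complement gene with the lowest p, was at 0.753, 0.582 and 0.459 CPM against 0.120, 0.0308 and 0.0512 CPM (3.17, adjusted p = 0.077). Nfkbia, a common NF-kB target, overlapped between genotypes at 15.6 to 22.3 and 15 to 20.7 CPM. At an unadjusted p under 0.05, 2 complement genes were higher and 0 lower, and 0 inflammatory genes moved either way. DESeq2 and limma-voom called 0 genes in each of these 3 lists.

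12 genes that rose stood in none of the lists. Cd274, which encodes the immune checkpoint ligand PD-L1, was at 53.4, 30.3 and 32.1 CPM against 8.39, 9.68 and 11.3 CPM (1.98, SE 0.24, adjusted p = 0.0030). Casp1, the inflammasome protease, was at 2.41, 2.53 and 2.84 CPM against 0.599, 0.432 and 0.665 CPM (2.19, SE 0.31). Il18bp, a secreted binder of interleukin 18, was at 8.35, 5.29 and 5.46 CPM against 2.36, 1.36 and 1.3 CPM (1.94, SE 0.31). Tnfsf10, the death ligand TRAIL, was at 5.61, 4.20 and 3.65 CPM against 0.999, 1.70 and 1.46 CPM (1.68, SE 0.29). The apolipoprotein L genes Apol6 (2.34, SE 0.35) and Apol9b (4.68, SE 0.63), together with BC023105, Gm4841, Gm12185, Olfr56, 4933412E12Rik and Svs2, completed the set. Svs2 had 0 counts in all Ctrl libraries and 61 in Stat3KO, at least 17.8-fold higher with the Ctrl group set at 3 counts in all. Olfr56 spans Ifi47, Tgtp1, Tgtp2 and Gm12185, and 4933412E12Rik overlaps Rab3ip on the other strand, so their reads cannot be assigned with certainty. Several of these calls were lost with single libraries left out: Casp1 without Stat3KO replicate 3 or Ctrl replicate 2 (adjusted p up to 0.063), Apol6 and Il18bp without Ctrl replicate 2 or 3 (0.096 and 0.12), 4933412E12Rik without any library but Stat3KO replicate 1 (0.18), and Svs2, Olfr56 and Tnfsf10 without any 1 library (0.14, 0.14 and 0.15).

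The 5 lower genes included 2 of the 4 arcuate feeding peptides, and the other 2 peptides rose. Pomc was at 136, 134 and 95.8 CPM in Stat3KO against 497, 554 and 446 CPM in Ctrl (-2.03, SE 0.17, adjusted p = 0.00017). Cartpt, which encodes a second peptide that restrains feeding, was at 210, 171 and 121 CPM against 540, 412 and 531 CPM (-1.56, SE 0.21, adjusted p = 0.0056). Agrp was at 693, 361 and 276 CPM against 124, 134 and 114 CPM (1.84, SE 0.29), and Npy at 2200, 1211 and 1011 CPM against 479, 482 and 437 CPM (1.66, SE 0.25). Stat3KO replicate 1 was the highest of its group for all 4 peptides, those that fell and those that rose. Neither Agrp nor Npy kept its call without Ctrl replicate 1, 2 or 3 (adjusted p up to 0.13 and 0.11). In pooled tissue, fewer cells of a type and less RNA per cell cannot be told apart.

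Known leptin-induced STAT3 targets stood on both sides. Of 26 tested, 2 rose and 0 fell (median -0.02). At an unadjusted p under 0.05, 4 were higher and 4 lower, against 2.1% and 2.01% of all tested genes. In each direction 5 had groups that did not overlap, against 5.16% of all tested genes higher and 4.24% lower. The 2 that rose were Irf9, described above, and the protease inhibitor Serpina3f, at 16, 11 and 13.1 CPM against 0.480, 0.123 and 0.588 CPM (5.05, SE 0.40). Its relative Serpina3n stood the other way, at 94.1, 79.4 and 60.8 CPM against 137, 147 and 186 CPM, with groups apart but just past the threshold (-1.0, SE 0.19, adjusted p = 0.059). DESeq2 called it lower, as did the fits scaled by library totals or without Stat3KO replicate 1. Ecel1, at 104, 91.6 and 79.9 CPM against 125, 149 and 141 CPM, did not pass (-0.59, adjusted p = 0.31), nor did Timp1 (-1.38, adjusted p = 0.61). Socs3, the feedback inhibitor that leptin induces through STAT3, overlapped between genotypes at 4.28 to 7.68 and 4.99 to 6.29 CPM (-0.08, SE 0.26). Socs1 was at 3.44, 2.76 and 2.84 CPM against 2.48, 1.76 and 1.53 CPM (0.65, SE 0.27, not past the threshold), and Cish, a STAT5 target, at 10.5, 8.94 and 9.67 CPM against 7.19, 5.58 and 4.19 CPM (0.78, adjusted p = 0.57). Atf3 overlapped, at 1.39 to 2.81 and 1.84 to 2.76 CPM. Of 15 genes for the leptin receptor and its proximal partners 0 passed (median 0.05), with 0 in either direction at an unadjusted p under 0.05 and 0 called by DESeq2 or limma-voom.

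Beyond the 4 arcuate peptides no neuropeptide or peptide receptor was called. Of 37 other neuropeptides 0 passed in edgeR (median -0.19; at an unadjusted p under 0.05, 0 higher and 5 lower, against 2.01% lower over all genes). Nts, which encodes neurotensin, had the lowest p, at 73.8, 36.6 and 39.1 CPM in Stat3KO against 90.9, 116 and 167 CPM in Ctrl (-1.32, SE 0.29, adjusted p = 0.17). DESeq2 called it lower, as did edgeR without Stat3KO replicate 1. Of 50 feeding hormone and peptide receptors 0 passed (median -0.25), and 9 were lower and 0 higher at an unadjusted p under 0.05. Npy1r, the NPY receptor Y1, was at 14.4, 15.4 and 12.9 CPM against 21.7, 24.2 and 29.4 CPM (-0.82, SE 0.17, adjusted p = 0.11), and DESeq2 called it lower. Npy5r (-0.85, adjusted p = 0.69) and the somatostatin receptor Sstr1 (-0.67, adjusted p = 0.25) stood on the same side with groups apart. Among 17 prohormone processing genes, Vgf was at 262, 258 and 197 CPM against 317, 342 and 349 CPM (-0.49, adjusted p = 0.67). The 17 tested glucocorticoid-responsive genes all had a positive log2 fold change (median 0.40), as did 48.3% of all tested genes. At an unadjusted p under 0.05, 7 were higher, against 2.1% of all tested genes. Of the 17, 0 passed in edgeR, 1 in DESeq2 and 0 in limma-voom. Their median log2 fold change in the supernatant was 0.45, so the shift was not limited to bead-bound RNA. Cdkn1a, a cell cycle inhibitor, was at 48.4, 27.4 and 26.4 CPM against 18.5, 11.8 and 13.9 CPM (1.21, adjusted p = 0.14), and Fkbp5, a co-chaperone of the glucocorticoid receptor, at 91.3, 104 and 100 CPM against 69.3, 73.8 and 63.2 CPM (0.52, adjusted p = 0.39).

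The other 3 lower genes had low counts. A830036E02Rik, a gene of unknown function, was at 0.271, 0.228 and 0.297 CPM against 6.23, 2.10 and 2.38 CPM (-3.72, SE 0.50), and Krt12, a keratin gene, at 0.211, 0.354 and 0.108 CPM against 2.12, 1.54 and 1.48 CPM (-2.90, SE 0.46). They overlap on opposite strands (chr11:99416956-99425497 and chr11:99415666-99422259), so their reads cannot be told apart. They were also the 2 genes called between genotypes in the supernatant (0.0108% of those tested there), with log2 fold changes of -5.17 and -3.13. Krt12 lost its bead-bound call with the replicate block and without Stat3KO replicate 1 or 3 or Ctrl replicate 1 or 3 (adjusted p up to 0.086). Gm10704 was at 0.304 to 0.331 against 1.12, 5.05 and 2.07 CPM (-3.10, SE 0.54) and overlaps Ssr2; its call was lost in limma-voom, with the block and without any library but Ctrl replicate 1 (adjusted p up to 0.21). A830036E02Rik and Krt12 lie within 2 Mb of Stat3, as does Ifi35, which rose (2.39, SE 0.22). Of 112 tested genes in that window, 13.4% had an unadjusted p under 0.05, 7 higher and 8 lower, against 4.11% of all tested genes, and the median log2 fold change was -0.08. Meox1, a homeobox gene, was at 1.21, 1.01 and 1.49 CPM against 3.40, 3.33 and 2.99 CPM (-1.39, adjusted p = 0.070), and Rdm1, a DNA repair gene, had -1.17 (adjusted p = 0.22). The labels give no genetic background for the chromosome that carries floxed Stat3, so effects of Stat3 and of alleles near it cannot be told apart here.

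**Figure D3:**
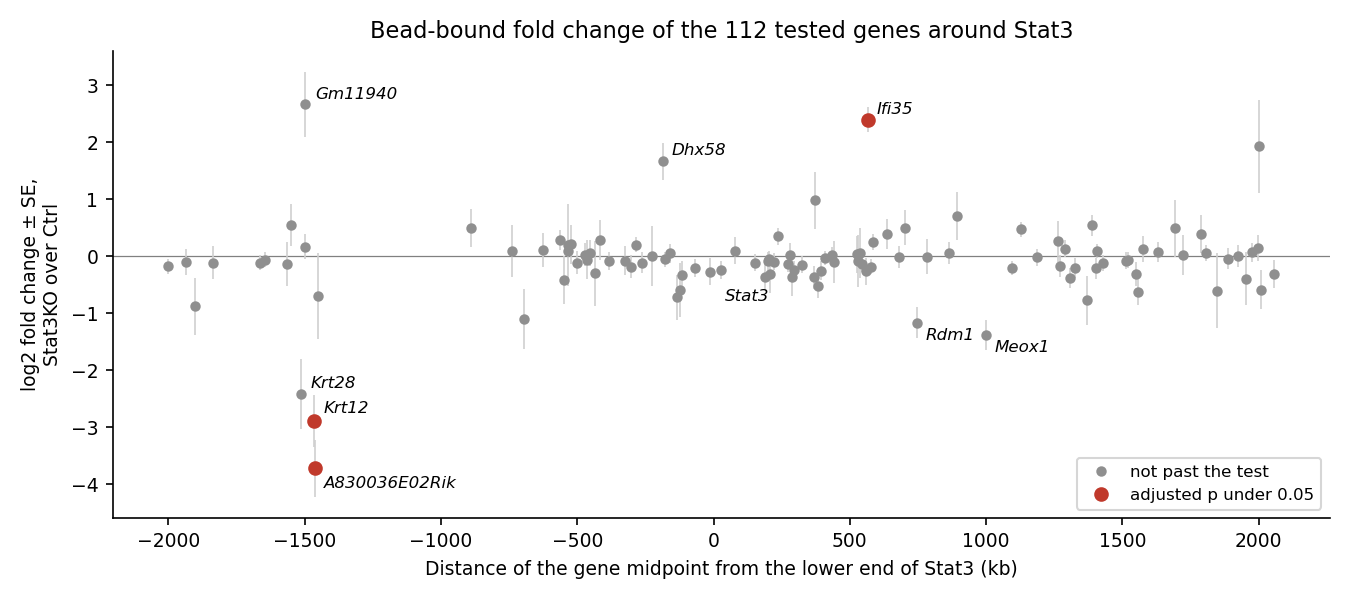
Each point is 1 of the 112 tested genes within 2 Mb of Stat3; the horizontal axis is the distance of its midpoint from the lower-coordinate end of Stat3 in kb and the vertical axis its bead-bound log2 fold change, with SE bars. Red points passed the test: Krt12 (-2.90) and A830036E02Rik (-3.72) lie together, and Ifi35 (2.39) on the other side of Stat3.

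Some called genes lay beside each other. On GENCODE M21 coordinates, 39 of the 78 lay within 500 kb of another called gene, in 11 groups. How many of any 78 tested genes would lie so close was not computed, so this count has no background. The span from Irgm1 to Olfr56 (chr11:48861968-49135387) held 6 called among 8 tested genes. The span of Gm4951, Gm4841, F830016B08Rik, Iigp1 and BC023105 (chr18:60212080-60442980) held 5 of 5. The Ifit span (chr19:34550694-34650009) held 4 of 6 and the Gbp span on chromosome 5 (chr5:105014150-105293698) 4 of 5, while 4 of 13 were called between H2-K1 and Psmb8 (chr17:33996017-34201454). Some spans, such as the Ifit and Gbp spans, hold families of duplicated genes. The called genes from H2-K1 to Psmb8 were H2-K1, Psmb9, Tap1 and Psmb8, which are not 1 family. Nor are the groups of Parp14 with Dtx3l and of Krt12 with A830036E02Rik. Of the 78 called genes, 14 overlap another called gene.

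The supernatant of the same pools served as the background of the pull-down. Of the 73 higher genes, 62 were tested there, 56 with a positive log2 fold change (49.3% of all genes tested in the supernatant), 20 higher at an unadjusted p under 0.05 (2.09% of all) and 0 called (0% of all). Their median log2 fold change in the supernatant was 0.33. The difference between fractions was tested as an interaction in all 12 libraries. This fit had no term for the pool, so both fractions of a pool entered as if independent. There, 37 of 19122 genes were more strongly raised on beads (0.193%) and 2 more strongly lowered (0.0105%). Of these 39, 38 are among the 78 called genes. The interaction uses the same bead-bound libraries that made those calls, so this overlap is no separate support. With the pool as a block, since both fractions of a number came from 1 pool, the counts were 55 and 4. Of the 37 and 2 genes, 35 and 1 were among them. Without Ctrl supernatant replicate 3 the count of 37 became 24, and leaving out single libraries moved the count of 2 to between 0 and 3. Oasl2 differed between genotypes by 3.74 more on beads than in supernatant on the log2 scale (SE 0.23, adjusted p = 2.0e-06), and Gm4951 by 7.53. For Pomc the difference was -1.22 (adjusted p = 0.035), a call lost in limma-voom (adjusted p = 0.071) and in 8 of 12 refits without a single library (adjusted p up to 0.14), namely Stat3KO beads 2 and 3, Ctrl beads 1 and 2, and supernatant 1 and 2 of Stat3KO and 1 and 3 of Ctrl. It held with the pool as a block (adjusted p = 0.00018). The differences for Cartpt (-1.49, adjusted p = 0.12), Agrp (0.24, adjusted p = 1.0) and Npy (0.95, adjusted p = 1.0) did not pass. For Cartpt, Agrp and Npy only the fit without the pool term is given. In Ctrl, each fraction scaled on its own, Pomc was 37.9 times and Agrp 57.9 times as high on beads as in supernatant. The interferon genes were not enriched to that degree in Ctrl. For the 53 of the 58 tested in supernatant, the median bead to supernatant ratio in Ctrl was 1.16 (quartiles 0.808 and 1.64). Over all 17053 genes tested in both fractions it was 0.928 (quartiles 0.660 and 1.21). In Stat3KO the medians were 6.68 and 0.924. The 53 genes were called for being higher on Stat3KO than on Ctrl beads, so a raised Stat3KO ratio follows in part from that choice.

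**Figure D4:**
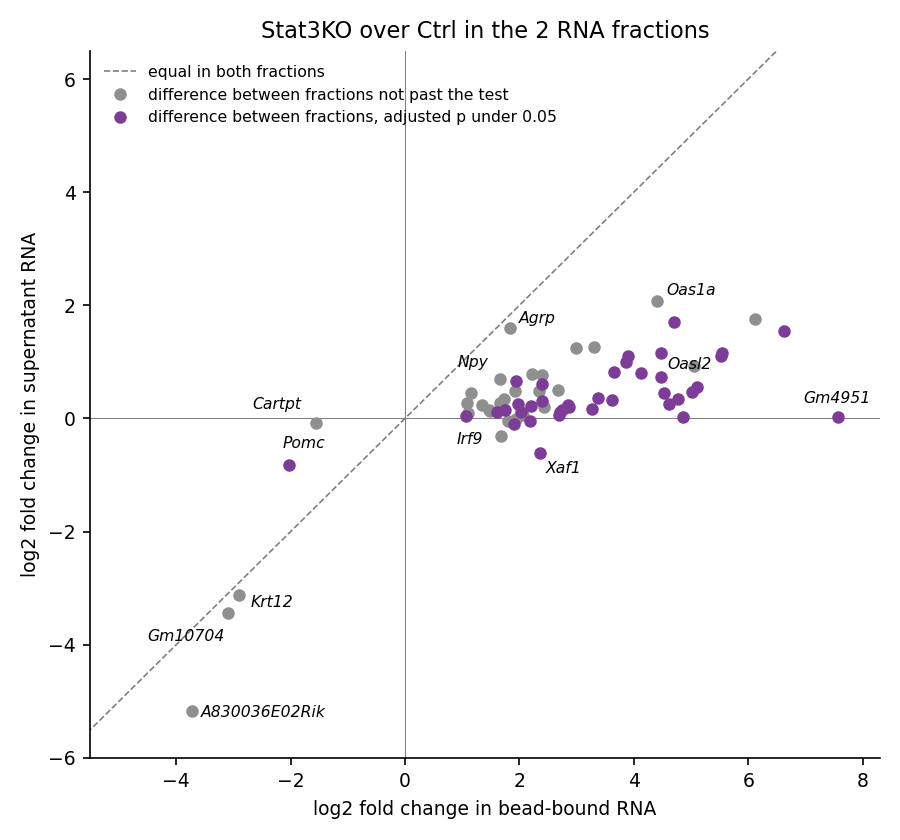
Each of the 67 called genes that was also tested in supernatant is placed by its log2 fold change in bead-bound RNA (horizontal) and in supernatant RNA (vertical); purple marks a difference between fractions past the test and the dashed line equal changes. Most higher genes lie near 0 on the vertical axis, while Krt12 and Gm10704 lie near the dashed line.

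The 58 called interferon and antigen presentation genes together reached 2040, 1422 and 1602 CPM on Stat3KO beads, against 256, 256 and 288 CPM on Ctrl beads; that contrast chose these genes. Their supernatant sums, which did not choose them, were 254, 284 and 251 CPM for Stat3KO, against 232, 223 and 226 CPM for Ctrl. The supernatant groups were therefore close to the Ctrl beads and did not overlap each other. The markers of other cell types gave these values beside it. The 17 microglia and macrophage markers were all tested and 0 were called. On beads they summed to 33.4 to 59.4 CPM in Stat3KO against 45.0 to 72.3 CPM in Ctrl. In supernatant they summed to 92.2 to 130 CPM in Stat3KO against 137 to 147 CPM in Ctrl, groups that did not overlap. Of 15 lymphocyte markers 3 passed the filter and 0 were called; Cd8a, Ms4a1, Nkg7, Gzma and Klrd1 had 0 counts in all 6 bead-bound libraries. The 16 endothelial markers, 0 called, summed to 57.9, 289 and 188 CPM in Stat3KO against 131, 146 and 247 CPM in Ctrl. Stat3KO replicate 1 thus had the lowest endothelial sum and the highest interferon sum. It was the highest of its group for 44 of the 73 higher genes and the lowest for 11. Neuronal markers (12, 0 called) summed to 9405 to 11894 CPM against 10400 to 10760 CPM, and 0 of the astrocyte, oligodendrocyte, precursor, mural and ependymal or tanycyte markers were called either. DESeq2 and limma-voom called 0 genes of any marker list. Of 13 striatal and cortical markers, 0 were called and 0 had a positive log2 fold change, with medians of -0.29 on beads and -0.54 in supernatant. Their sums were 573, 308 and 348 CPM in Stat3KO beads, against 552, 482 and 447 CPM in Ctrl beads, so Stat3KO replicates 2 and 3 were the lowest. Ppp1r1b, a phosphatase inhibitor abundant in striatum, was at 157, 17.6 and 28.3 CPM on Stat3KO beads and at 128, 85.9 and 51.6 CPM on Ctrl beads. Of 15 oligodendrocyte markers 2 had a positive log2 fold change on beads (median -0.26). In supernatant the 15 summed to 5618 to 6367 CPM in Stat3KO against 6744 to 8760 CPM in Ctrl, groups that did not overlap. The 9 precursor markers also stood apart in supernatant, at 406 to 442 CPM in Stat3KO against 459 to 488 CPM in Ctrl. Mitochondrially encoded transcripts took 0.134% of the counts in Ctrl replicate 1 and 0.0149% to 0.0311% in the other 5 libraries. The part of cell mixture, of the dissected block or of that library in the results was not tested.

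**Figure D5:**
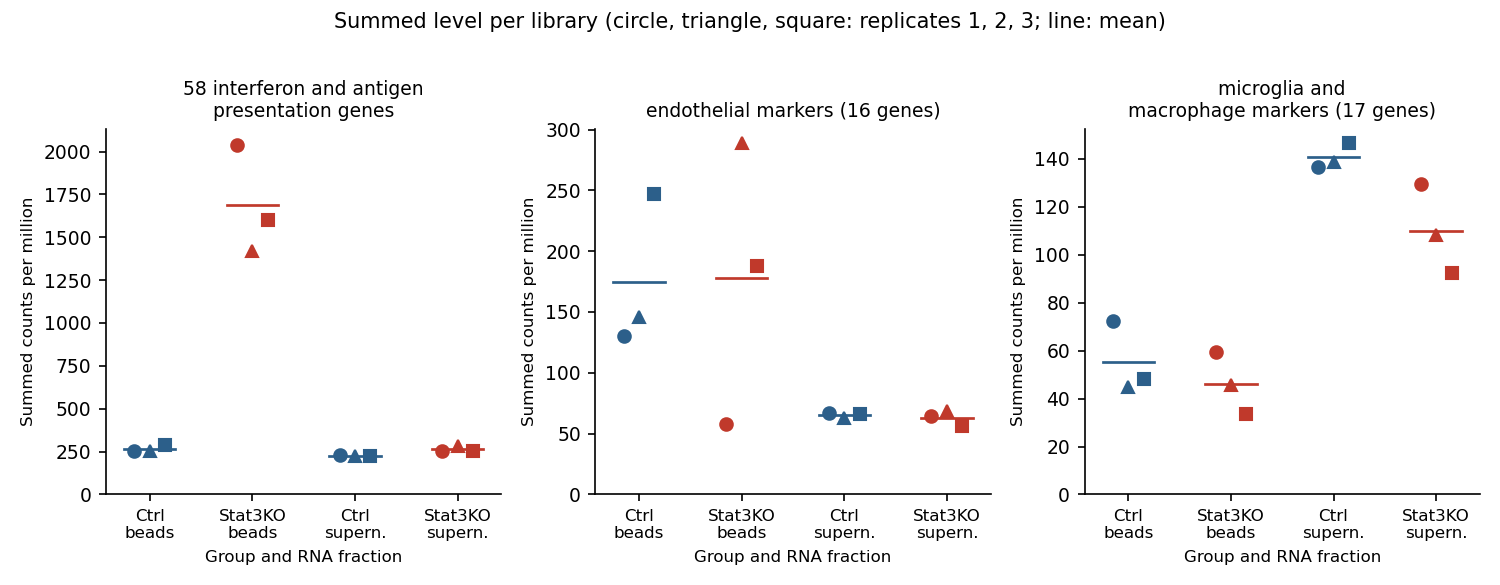
The vertical axes give summed CPM in each library for 3 gene sets, by genotype and fraction, each fraction scaled on its own; marker shapes are replicates and lines are means. The interferon sum is at 1422 to 2040 CPM in Stat3KO beads and at 223 to 288 CPM in the other 3 groups of libraries, while the endothelial and microglial sums overlap between genotypes on beads.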

How the data were processed

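The values are whole-number gene counts as deposited by the authors. STAR 2.5.3a and the mm10 genome are named in the submitters' processing notes, whereas for counting tool, annotation and strand the entry is: not given in the sources used here. Of 52638 entries, 52489 matched GENCODE M21 (GRCm38), 2 are transgenes and 147 did not match; 0 sample columns were left over. Bead-bound libraries went through edgeR's quasi-likelihood test (version 4.0.16, R 4.3.3) after TMM scaling and filterByExpr (minimum count 10, minimum total 15), 2-sided, with a Benjamini-Hochberg adjusted p under 0.05. SE is the log2 fold change's size over the square root of F. On simulated data for this comparison (17354 genes, 200 changed) 51% of changes of 1 and 87% of changes of 2 on the log2 scale were recovered, with 6 false calls. DESeq2 1.42.0, limma-voom (limma 3.58.1), other scalings and filters, and refits without single libraries were alternatives. The labels do not say that a replicate number is shared by pools of both genotypes, so numbers were not taken to pair genotypes. The correlations of same-numbered libraries' deviations between genotypes were 0.171, -0.0889 and 0.195. Those of differently numbered libraries ran from -0.280 to 0.127, below 0.171 and 0.195. With so few pools these values cannot decide whether the numbers pair. Named genes were Stat3, Lepr, the transgenes, feeding peptides, interferon receptors, STAT and feedback genes, every gene that passed, and up to 4 others per list by level or p, with genes within 2 Mb of Stat3. A gene that this rule names is not reported here. Members and lists were chosen with earlier results of these data known. Without molecular identifiers, depth informs on counting error alone.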

Additional observations from a re-analysis of the deposited data

Results flagged for a closer look

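For the genes below, all called on beads, the genotype difference itself differed between bead-bound and supernatant RNA. The test was the interaction in edgeR across 12 libraries, without a term for the pool (adjusted p under 0.05). Values are the log2 fold change on beads minus that in supernatant. Among transcription factors and sensors it was 1.78 for Irf7 and 1.27 for Eif2ak2. For antiviral effectors it was 3.74 for Oasl2, 4.54 for Ifit1, 1.5 for Ifit2, 2.58 for Ifit3, 4.35 for Bst2, 4.35 for Rtp4, 7.53 for Gm4951, 2.07 for Ifi35, 2.97 for Xaf1 and 1.97 for Samd9l. The immunity-related GTPases gave 2.60 for Irgm1, 4.07 for Irgm2, 2.79 for Igtp, 5.07 for Gm12250, 4.55 for Iigp1 and 4.40 for Ifi47. Among the guanylate-binding proteins it was 4.42 for Gbp3, 2.84 for Gbp4 and 3.33 for Gbp6. The ISG15 pathway gave 4.83 for Isg15 and 3.28 for Usp18, the PARP genes 2.65 for Parp10 and 1.03 for Parp12, and Trim21 gave 1.91. In antigen presentation it was 2.63 for B2m, 3.10 for H2-K1, 3.00 for H2-Q6, 3.30 for H2-Q7, 2.00 for H2-T23, 2.82 for Psmb8, 3.00 for Psmb9 and 2.57 for Tap1. Outside the lists Cd274 gave 1.71 and Casp1 2.23. Pomc was the gene called on beads that went the other way, at -1.22. Each of these kept the sign of its bead-bound change in this difference. The difference includes the bead-bound change itself, so the shared sign is no separate support. Of these 37 genes, 22 kept the call under all 20 alternatives and 15 lost it under at least 1, with 0 changes of sign. Parp12 lost it in 12 of 12 refits without a single library, Casp1 in 11, Samd9l in 10, H2-Q6, H2-Q7, Gbp4 and Psmb9 in 9, Pomc, Eif2ak2 and Cd274 in 8 and H2-T23 in 7. Gbp4 and Casp1 also lost it with the pool as a block (adjusted p = 0.080 and 0.064).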

How the results depend on the processing

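Of the 78 bead-bound calls, 55 held under all 15 alternatives, 23 were lost under at least 1 and 0 changed direction. The 73 higher and 5 lower calls became 133 and 50 without a low-count filter, and 273 and 894 with replicates 2 and 3 alone, an alternative chosen with earlier results known. The lower count was 15 in DESeq2, 9 with all 12 libraries and 3 with the replicate block (70 higher). Leaving out 1 library gave 53 to 69 higher and 3 to 13 lower, the 13 without Stat3KO replicate 1, the 9 without Ctrl replicate 1 and the 3 without Ctrl replicate 3. For the difference between fractions, 37 and 2 became 59 higher in DESeq2, 76 and 21 without a filter, 1 lower in limma-voom, 4 lower with replicates 2 and 3 alone and 4 lower with the pool as replicate block; leaving out 1 library gave 24 to 35 and 0 to 3. Genes that were not called and changed sign were Lepr (-0.11 with replicates 2 and 3 alone; -0.19 to 0.27 without single libraries), Gfp_L10a (0.0128 by library totals, 0.0429 with replicates 2 and 3; -0.20 to 0.24), Atf3 (0.15 with replicates 2 and 3; -0.48 to 0.0438), Cre (-0.43 to 0.0551), Socs3 (-0.39 to 0.0729) and Ifngr1 (-0.16 to 0.11). The cause was not tested. Depth limits genes near the filter: 27 of the higher genes had a Ctrl mean under 1 CPM.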
